A study of Mus musculus with 10 samples.

Results

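The subject is a set of 10 mouse genes for secreted factors that act on blood and lymphatic vessels, taken by gene symbol from a table of 25239 genes. They are the 5 ligands of the VEGF family (Vegfa, Vegfb, Vegfc, Vegfd and Pgf), the angiopoietin Angpt1, the angiopoietin-like factors Angptl2 and Angptl4, and the heparin-binding pair Ptn (pleiotrophin) and Mdk (midkine). All 10 were in the table, and all 10 passed the filter on low counts that left 15416 genes for testing. The 10 were chosen by family, not by a threshold on their values.

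RNA had been sequenced from FACS-sorted cells of the calvarial suture, the fibrous joint between skull bones, of mice at postnatal day 7. One population, DDR2-plus, is named for the collagen receptor DDR2, and the other is labelled PSC, which the labels do not spell out. Each has 5 libraries, numbered 1 to 5, and the titles (Sut1 to Sut5) give each number to 1 library of each population. Whether libraries that share a number form a pair is not stated. The genotype is given as WT for every library, while the protocol speaks of Ctsk-Cre mice, a line in which the promoter of the cathepsin K gene drives Cre recombinase, so a Cre allele may be common to both populations. No treatment is named, and neither the animal behind each library nor any pooling of animals is given. The p-values therefore describe the spread between libraries, which may be technical.

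VEGF-A binds the receptor kinases VEGFR1 (Flt1) and VEGFR2 (Kdr) on endothelial cells and draws vessels into cartilage and bone, where hypertrophic chondrocytes and osteoblasts are among its known sources. Of these receptor kinases, VEGF-B and placental growth factor (Pgf) bind VEGFR1 alone. VEGF-C and VEGF-D act through VEGFR3 (Flt4) on lymphatic vessels. Angiopoietin 1 steadies vessels through the receptor Tie2 (Tek), whereas the angiopoietin-like proteins share its fold and do not use Tie2. Pleiotrophin and midkine bind the phosphatase PTPRZ1, the kinase ALK and the heparan sulfate chains of syndecans, and both are made by developing bone and cartilage.

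Total counts per library were between 43419129 and 62021992. Levels are in CPM, counts scaled to a common library total with TMM factors, which allow for a few very abundant genes, and 1 count was worth between 0.0146 and 0.0249 CPM. Such genes differed here, since Col1a1 and Col1a2 took 4.56% to 8.24% of the counts in DDR2-plus and 21.5% to 23.7% in PSC. Ddr2 itself was at 112 ± 3.56 CPM in DDR2-plus against 152 ± 10.7 CPM in PSC (SD, n = 5 each), so the transcript was lower in the population named for the protein. Chondrocyte markers were higher in DDR2-plus for 8 of 8 genes and osteoblast markers lower for 7 of 8. DDR2-plus 3 stood apart from its group, with the highest osteoblast sum (46845 CPM over 8 genes) and the lowest chondrocyte sum (84795 CPM over 8 genes) of the 5. The osteoblast sum includes Col1a1, and DDR2-plus 3 also had the highest type I collagen share of its group (8.24%). That sum is therefore no separate measure of osteoblast content.

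Of the 10 factors, 7 were lower in DDR2-plus, 1 was higher and 2 did not pass the test (edgeR's quasi-likelihood test, Benjamini-Hochberg adjusted over all tested genes, threshold 0.05). Among all tested genes 19.0% were called lower and 20.1% higher, 39.1% in all. The same shares are the background of every gene list counted below. The median log2 fold change, DDR2-plus over PSC, was -0.85 for the 10 factors and 0.04 for all tested genes. The 5 libraries of one population did not overlap with those of the other for 6 factors that were lower and 1 that was higher, where 14.6% and 15.6% of all tested genes had no overlap in those directions and 30.1% in either. Vegfa alone among the 10 was called higher in DDR2-plus. In bulk libraries such as these, fewer cells that make a transcript and less of it per cell cannot be told apart.

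**Figure D1:**
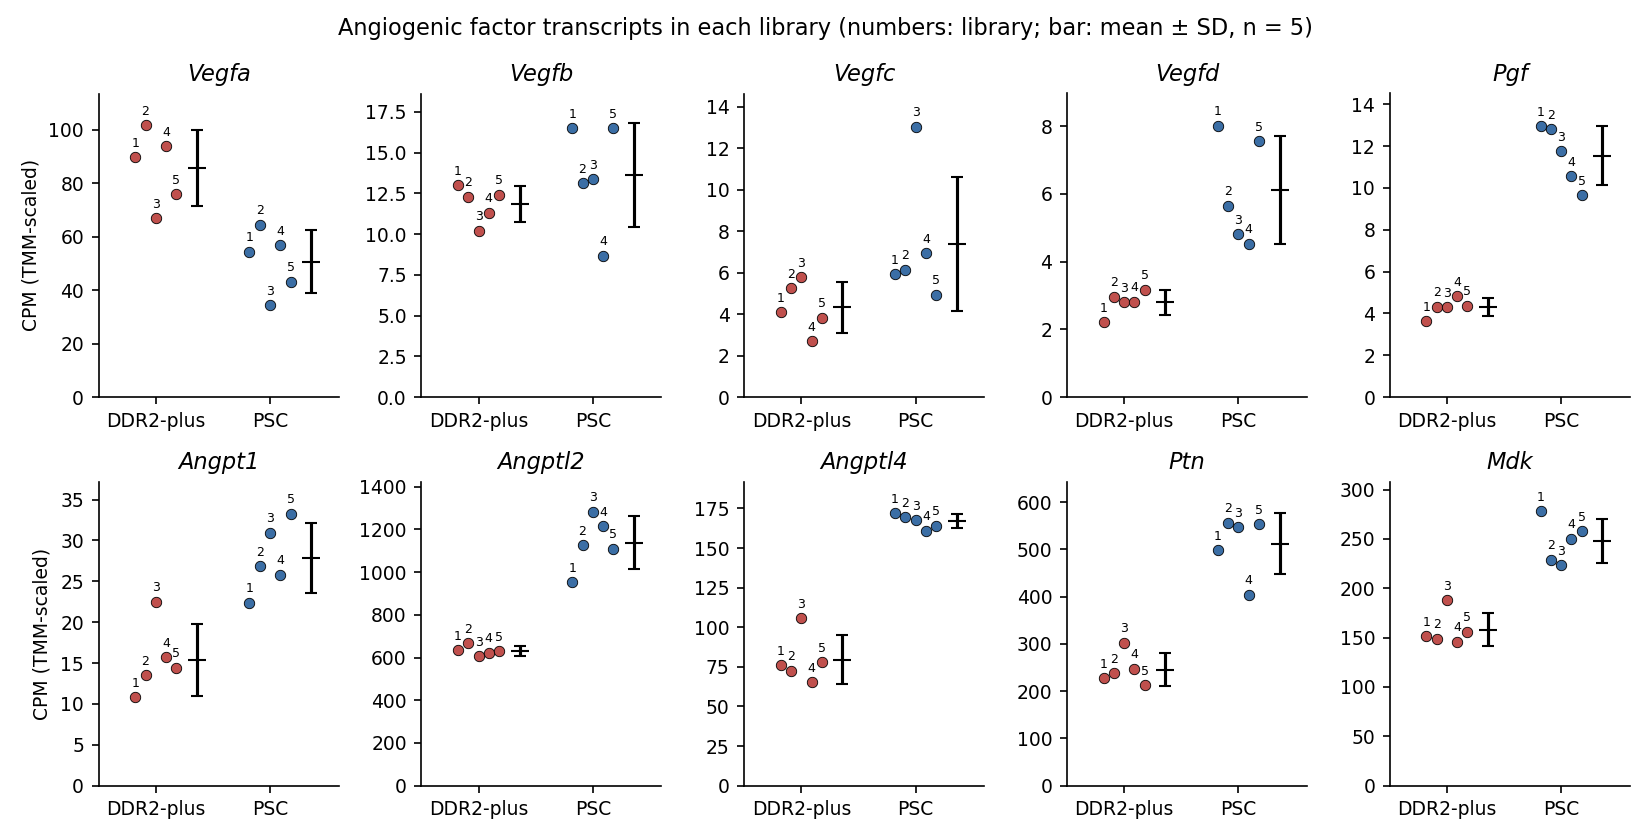
Level of each of the 10 factors in every library, in TMM-scaled CPM on a linear axis from 0. Points are libraries with their numbers, and the bar beside each group is the mean ± SD of 5 libraries. Vegfa is higher in DDR2-plus, at 85.6 against 50.7 CPM on average, whereas Pgf, Vegfd, Angptl2, Angptl4, Ptn and Mdk are lower without overlap.

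RefSeq promoter windows (build GRCm38.p6) were found for 7 of the 10 genes. Angpt1, Angptl4 and Mdk had none. The bases before the transcription start of 4 of them are shown, read 5′ to 3′ on the gene's strand: Vegfa, the factor called higher, its relative Vegfb, which was not called, and Angptl2 and Ptn, which had the most counts among the factors called lower. Capitals mark matches, on either strand, to the GC box GGGCGG and to the core letters bound by hypoxia-inducible factors (HIF), ACGTG or GCGTG. The Vegfa window is at chr17:46032378-46032627, minus strand, the Vegfb window at chr19:6987652-6987901, minus strand, and the Angptl2 window at chr2:33215711-33215960, plus strand. The Ptn window, chr6:36810221-36810429, minus strand, is cut to the 209 bases outside the annotated gene.
Vegfa: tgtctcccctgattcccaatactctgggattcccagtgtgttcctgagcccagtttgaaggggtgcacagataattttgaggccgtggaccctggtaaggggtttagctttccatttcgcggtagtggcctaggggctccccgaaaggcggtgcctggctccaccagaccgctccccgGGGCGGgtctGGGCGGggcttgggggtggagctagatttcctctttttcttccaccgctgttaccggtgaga
Vegfb: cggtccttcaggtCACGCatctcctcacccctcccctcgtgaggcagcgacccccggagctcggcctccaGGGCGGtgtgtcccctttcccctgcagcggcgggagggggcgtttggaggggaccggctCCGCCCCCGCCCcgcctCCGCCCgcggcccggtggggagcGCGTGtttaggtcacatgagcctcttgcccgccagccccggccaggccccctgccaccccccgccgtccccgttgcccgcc
Angptl2: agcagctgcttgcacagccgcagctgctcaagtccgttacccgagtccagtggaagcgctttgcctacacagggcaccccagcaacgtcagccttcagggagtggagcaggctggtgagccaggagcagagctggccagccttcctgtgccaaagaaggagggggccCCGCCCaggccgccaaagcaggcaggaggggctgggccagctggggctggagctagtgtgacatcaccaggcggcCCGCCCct
Ptn: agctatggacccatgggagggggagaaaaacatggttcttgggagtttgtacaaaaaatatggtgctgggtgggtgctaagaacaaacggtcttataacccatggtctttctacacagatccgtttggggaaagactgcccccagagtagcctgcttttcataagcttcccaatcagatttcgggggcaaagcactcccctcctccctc

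In the 250 bases upstream, Vegfa held 2 GC boxes, Vegfb 4, Angptl2 2 and Ptn 0, where 32.7% of the 32851 windows of that length in the table held at least 1. HIF core letters occurred 2 times in the Vegfb window and 0 times in the windows shown for Vegfa, Angptl2 and Ptn, where 38.6% of all windows held at least 1. A second RefSeq start of Vegfa lies inside the gene, and its window, chr17:46025164-46025413, minus strand, held 2 HIF cores and 1 GC box. A TATAAA match was found in the window of Vegfd and in 12.4% of all windows. The G and C content was 59.2% for Vegfa, 76.4% for Vegfb, 66.8% for Angptl2, 52.0% for Ptn and 42.4% for Vegfd, against a median of 52.4%. A match describes letters and is not a measured binding site, and sites outside the RefSeq windows were not looked for.

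Vegfa (chromosome 17, 46016993 to 46032369, minus strand, mm10) encodes the main attractant of blood vessels. In DDR2-plus libraries 1 to 5 it was at 89.8, 101.8, 66.9, 93.9 and 75.8 CPM. In PSC libraries 1 to 5 it was at 54.4, 64.5, 34.3, 56.9 and 43.2 CPM. The groups came close to each other without overlap, and library 3 was the lowest in both. The mean was 85.6 ± 14.1 CPM in DDR2-plus against 50.7 ± 11.9 CPM in PSC (SD, n = 5 each), a 1.69-fold higher level (95% interval 1.32 to 2.16; log2 fold change 0.76, SE 0.164; edgeR adjusted p = 0.00274).

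The chondrocyte marker sum was lowest in library 3 of each population too, at 84795 CPM in DDR2-plus 3, where the other 4 had 103336 to 118545 CPM, and at 9880 CPM in PSC 3, where the other 4 had 16433 to 25038 CPM. The orders were not the same throughout, since PSC 2 had the highest Vegfa level of the PSC libraries and the second lowest chondrocyte sum. The part of chondrocyte content in the Vegfa difference was not tested. With number 3 left out of both groups, the Vegfa log2 fold change was 0.72 (edgeR adjusted p = 0.00169).

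Vegfb (chromosome 19, 6982473 to 6987651, minus strand), a ligand of VEGFR1 linked to fatty acid use in heart and muscle, was at 13.0, 12.3, 10.2, 11.3 and 12.4 CPM in DDR2-plus libraries 1 to 5 and at 16.5, 13.1, 13.4, 8.68 and 16.5 CPM in PSC libraries in that order. The groups overlapped, with PSC 4 below every DDR2-plus library. The log2 fold change was -0.20 (edgeR adjusted p = 0.398), with a 95% interval of the fold from 0.668 to 1.13. Scaled by library size alone it was 0.066 (edgeR adjusted p = 0.794), so no direction can be given for Vegfb.

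Vegfc (chromosome 8, 54077606 to 54187096, plus strand), the principal growth factor of lymphatic vessels, was at 4.09, 5.26, 5.78, 2.69 and 3.84 CPM in DDR2-plus libraries 1 to 5 and at 5.94, 6.15, 13.0, 6.94 and 4.93 CPM in PSC. The groups overlapped through PSC 5, and PSC 3 was far above the rest. The log2 fold change of -0.77 (SE 0.305) did not pass (edgeR adjusted p = 0.0621), and it passed in 3 of 19 alternative settings, whose adjusted p lay between 0.0389 and 0.204.

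Vegfd (chromosome X, 164373378 to 164402650, plus strand), the other lymphatic ligand, was the least abundant of the 10 factors, with 125 counts in the library where it had fewest. It was at 2.22, 2.97, 2.80, 2.81 and 3.17 CPM in DDR2-plus libraries 1 to 5 and at 8.01, 5.65, 4.82, 4.53 and 7.55 CPM in PSC. Every DDR2-plus library was below every PSC library, and DDR2-plus was 2.19-fold lower (log2 fold change -1.13, SE 0.250; edgeR adjusted p = 0.00321).

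Pgf (chromosome 12, 85166635 to 85177790, minus strand) showed the largest fold change of the 10. It was at 3.63, 4.33, 4.29, 4.83 and 4.38 CPM in DDR2-plus libraries 1 to 5 and at 12.9, 12.8, 11.8, 10.6 and 9.66 CPM in PSC. Every PSC library was above every DDR2-plus library with a wide gap, and DDR2-plus was 2.69-fold lower (log2 fold change -1.43, SE 0.166; edgeR adjusted p = 2.7e-05). The PSC libraries thus carried more of this VEGFR1 ligand and less of Vegfa than the DDR2-plus libraries.

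Since the scaling between libraries cannot touch a ratio within a library, the log2 ratio of counts was compared for 3 pairs of relatives, with exact two-sided permutation tests adjusted over the 3. The ratio of Vegfa to Vegfb was 2.84 ± 0.200 in DDR2-plus and 1.90 ± 0.592 in PSC (SD, n = 5 each), a difference of 0.94 (exact permutation p = 0.0159, adjusted p = 0.0238). That test ignores the shared library numbers. The 3 pairs were chosen with earlier results of these data known, which the adjustment does not allow for. With libraries paired by number, sign flips gave exact permutation p = 0.0625, the smallest that 5 pairs allow. PSC 4, at 2.71, lay within the range of the DDR2-plus libraries, 2.61 to 3.05.

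Divided by the length of its exons, Vegfa made up 57.9% to 66.6% of the summed level per kb of the 5 VEGF ligands in the DDR2-plus libraries and 28.9% to 49.1% in the PSC libraries. The mean share was 62.6% ± 3.82 in DDR2-plus and 39.5% ± 8.27 in PSC (SD, n = 5 each). Pgf had a mean share of 4.70% in DDR2-plus and 13.3% in PSC, and Vegfd 3.70% and 8.46%. Shares have a fixed total in each library, so the lower Vegfa share in PSC had to raise the other 4 in sum. Each of these 4 had a higher mean share in PSC, although the levels of Vegfb and Vegfc were not called. Vegfb was the second of the 5 in both means.

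**Figure D2:**
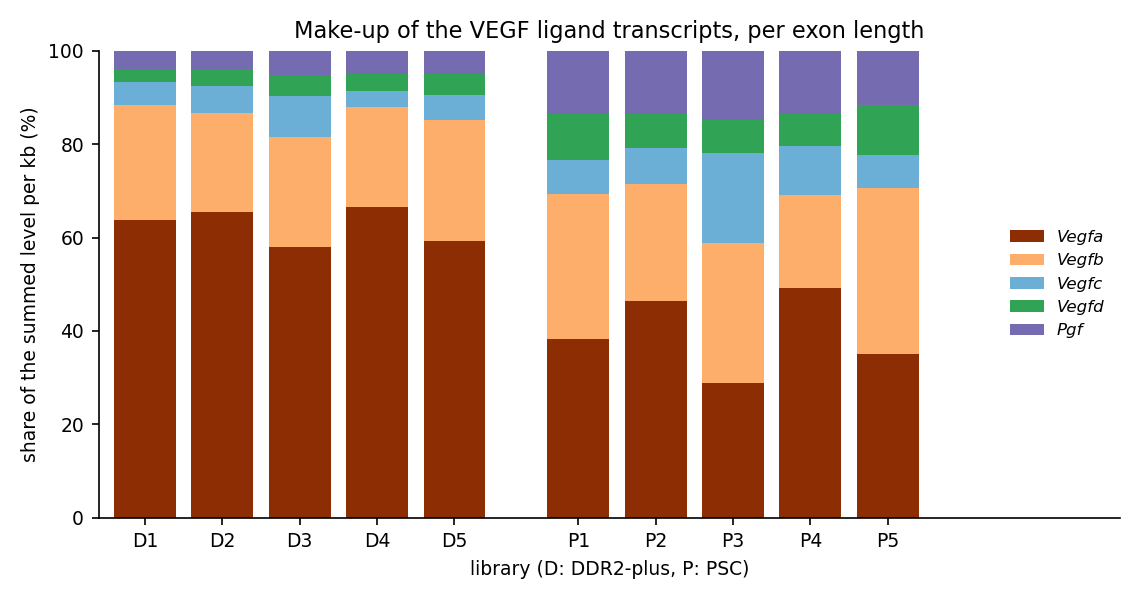
Share of each VEGF ligand in the summed level per kb of exons of the 5 ligands, in percent, for each DDR2-plus library (D1 to D5) and each PSC library (P1 to P5). Vegfa fills 57.9% to 66.6% of the bar in DDR2-plus and 28.9% to 49.1% in PSC.

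Angpt1 (chromosome 15, 42424723 to 42676977, minus strand), the agonist of Tie2, was at 10.8, 13.5, 22.5, 15.7 and 14.4 CPM in DDR2-plus libraries 1 to 5 and at 22.4, 26.9, 30.96, 25.8 and 33.3 CPM in PSC. The groups touched only through DDR2-plus 3, which was slightly above PSC 1. The level was 1.81-fold lower in DDR2-plus (log2 fold change -0.86, SE 0.182; edgeR adjusted p = 0.00247). Its exons share 14.2% of their bases with the annotated gene Gm17473, and without strand the reads of the pair cannot be told apart.

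Angptl2 (chromosome 2, 33216069 to 33247717, plus strand), a secreted factor tied to inflammation and tissue remodelling, had the highest CPM of the 10 in every library. It was at 633, 667, 606, 623 and 629 CPM in DDR2-plus, a narrow band with a coefficient of variation of 3.55%. In PSC it was at 953, 1125, 1283, 1215 and 1109 CPM. The groups were far apart, and DDR2-plus was 1.80-fold lower (log2 fold change -0.85, SE 0.0783; edgeR adjusted p = 4.29e-06).

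Angptl4 (chromosome 17, 33773750 to 33781830, minus strand) encodes an inhibitor of lipoprotein lipase that is induced by fasting, by PPAR receptors and by low oxygen. It was at 76.1, 72.6, 105.8, 65.5 and 77.8 CPM in DDR2-plus libraries 1 to 5 and at 172, 169.6, 167, 161 and 164 CPM in PSC. Here the PSC libraries formed the narrow band, with a coefficient of variation of 2.63% against 19.3% in DDR2-plus, where library 3 was the highest. The groups did not overlap, and DDR2-plus was 2.10-fold lower (log2 fold change -1.07, SE 0.110; edgeR adjusted p = 9.68e-06).

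The log2 ratio of Angptl4 to Angptl2 was -3.01 ± 0.291 in DDR2-plus and -2.76 ± 0.188 in PSC (SD, n = 5 each), a difference of -0.25 that did not pass (exact permutation p = 0.143, also after adjustment). Without DDR2-plus 3 the difference was -0.37 (exact permutation p = 0.0159, not adjusted).

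Ptn (chromosome 6, 36714929 to 36810220, minus strand), a growth factor of neurites and of bone-forming cells, was at 227, 239, 303, 247 and 213 CPM in DDR2-plus libraries 1 to 5 and at 498, 557, 547.5, 404 and 554 CPM in PSC. The highest DDR2-plus library, number 3, stayed well below the lowest PSC library, number 4. DDR2-plus was 2.08-fold lower (log2 fold change -1.06, SE 0.111; edgeR adjusted p = 1.15e-05).

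Mdk (chromosome 2, 91929805 to 91932297, minus strand), its only close relative, was at 152, 149, 188, 146 and 156 CPM in DDR2-plus libraries 1 to 5 and at 278, 229, 223.5, 250.3 and 258 CPM in PSC. No library of one group reached the other, and DDR2-plus 3 was again the highest of its group. The level was 1.57-fold lower in DDR2-plus (log2 fold change -0.65, SE 0.0869; edgeR adjusted p = 7.95e-05).

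The log2 ratio of Ptn to Mdk was 0.63 ± 0.120 in DDR2-plus and 1.04 ± 0.268 in PSC (SD, n = 5 each), so Ptn differed more than Mdk, by 0.41 on the log2 scale (exact permutation p = 0.0159, adjusted p = 0.0238). With libraries paired by number it did not pass (sign flips, exact permutation p = 0.125). PSC 4, at 0.69, was inside the DDR2-plus range of 0.45 to 0.76. Without DDR2-plus 1 or DDR2-plus 5 the difference no longer passed (exact permutation p = 0.0556 for each), at -0.40 and -0.36.

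DDR2-plus 3 was thus the highest library of its group for Angpt1, Angptl4, Ptn, Mdk and Vegfc and the lowest for Vegfa, Vegfb and Angptl2. For Angpt1, Angptl4, Ptn, Mdk, Vegfc and Vegfa it was the DDR2-plus library nearest to the PSC mean. Without it, the log2 fold change was -1.04 for Angpt1, -1.20 for Angptl4, -1.16 for Ptn, -0.73 for Mdk and 0.82 for Vegfa. For Vegfc, not called in the main test, it was -0.91 and passed (edgeR adjusted p = 0.0485). All 8 calls kept their direction and passed in each of the 19 alternative settings, among them library size alone, where the log2 fold change was -0.38 for Mdk and 1.03 for Vegfa.

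**Figure D3:**
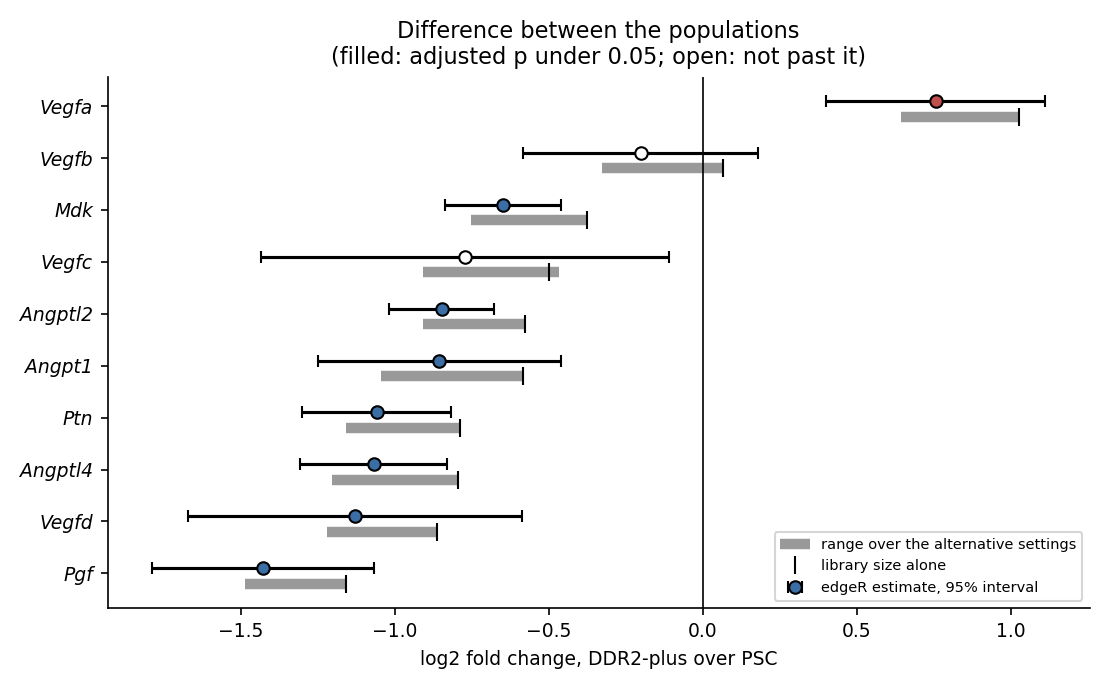
Log2 fold change, DDR2-plus over PSC, of each factor by edgeR, with its 95% interval (points; filled where the adjusted p is under 0.05). Grey bars give the range over 19 alternative settings and ticks the value with library size alone; of the 10 factors, only Vegfb has a bar that crosses 0.

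Levels of different genes can be set against each other only per length, here as CPM per kb of the union of a gene's exons. By that measure Mdk, Angptl2 and Ptn led in DDR2-plus, at 119 ± 12.8, 100.5 ± 3.56 and 71.6 ± 10.02 CPM per kb (SD, n = 5 each), in that order without overlapping ranges. Angptl4 (22.5 ± 4.35) and Vegfa (20.0 ± 3.29) came next and overlapped, followed by Vegfb (7.38 ± 0.689). Angpt1, Vegfc, Pgf and Vegfd were between 2.96 and 1.16 CPM per kb, each overlapping with the next.

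In PSC the first 3 were the same, at 187 ± 16.8, 181 ± 19.8 and 149 ± 18.9 CPM per kb, but Mdk overlapped with Angptl2, and Angptl2 with Ptn. Angptl4, at 47.1 ± 1.24 CPM per kb, was clear of Ptn above and of Vegfa (11.8 ± 2.78) below. Vegfa overlapped with Vegfb (8.49 ± 2.0), and Pgf (3.98 ± 0.491) stood above Vegfc (3.02 ± 1.32) with overlapping ranges. The neighbours that separated the populations most plainly were Angptl4 and Vegfa, near each other in DDR2-plus and far apart in PSC. With the longest transcript as the length, Angptl2 led Mdk in both populations, at 177.5 against 149.9 CPM per kb in DDR2-plus and 319.5 against 235 CPM per kb in PSC.

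The other ligands of the same families were all lower in DDR2-plus where they were called. Of 7 such genes, 5 were tested, 3 were lower and 0 higher. Angptl1, a relative with reported antiangiogenic activity, was at 49.4, 54.9, 70.5, 63.3 and 103.5 CPM in DDR2-plus libraries 1 to 5 and at 335, 378, 518, 470.1 and 476 CPM in PSC. The groups lay far apart, and DDR2-plus was 6.37-fold lower (edgeR adjusted p = 1.03e-06). Its exons share 16.4% of their bases with the annotated gene Gm37802. Angpt2, which competes with angiopoietin 1 at Tie2, was at 15.7 ± 8.81 and 40.4 ± 8.52 CPM, 2.57-fold lower (edgeR adjusted p = 0.00366), and Angptl7 was at 6.89 ± 3.63 and 20.8 ± 6.18 CPM, 3.01-fold lower (edgeR adjusted p = 0.00486; SD, n = 5 each), with DDR2-plus 3 just above PSC 1. Neither Angpt4 (3.91 and 8.05 CPM) nor Angptl6 (1.85 and 2.10 CPM) passed, and Angpt4 was called lower in 3 of 19 alternative settings.

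Of 21 genes for receptors and binding partners, 16 were tested, 4 were higher and 5 lower in DDR2-plus, with a median log2 fold change of 0.09. On the side of pleiotrophin and midkine the genes split. Ptprz1, the phosphatase they bind, was at 43.7, 48.4, 63.9, 57.6 and 34.3 CPM in DDR2-plus libraries 1 to 5 and at 150.2, 132, 109.9, 165 and 151 CPM in PSC. The groups had no overlap, and DDR2-plus was 2.86-fold lower (edgeR adjusted p = 1.22e-05). Like Ptn and Mdk it had its highest DDR2-plus value in library 3. Alk, the kinase, had 123 counts over the DDR2-plus libraries and 9 over PSC and was not tested.

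The syndecans, which carry heparan sulfate, went in both directions. Sdc4 was at 847, 942, 608, 880 and 752 CPM in DDR2-plus libraries 1 to 5 and at 196, 203, 119, 221 and 176 CPM in PSC, which put DDR2-plus 4.402-fold above (edgeR adjusted p = 1.18e-06). Sdc3, a known pleiotrophin receptor of neurons, was 1.33-fold higher (535 ± 34.1 against 402 ± 49.1 CPM; edgeR adjusted p = 0.00247). Sdc1 was 1.81-fold lower (81.7 ± 3.30 against 147.5 ± 17.5 CPM; edgeR adjusted p = 6.85e-06), and Sdc2 stood at 383 and 367 CPM without a call. Lrp1, an endocytic receptor that also binds midkine, was 1.34-fold lower (640 ± 92.6 against 860.5 ± 42.2 CPM, SD, n = 5 each; edgeR adjusted p = 0.00266), a call that library size alone did not give (edgeR adjusted p = 0.136). The integrin chain gene Itgb1 was 1.504-fold lower (edgeR adjusted p = 1.68e-05). There was no call for Itga5 (109 and 100.4 CPM), Itga4 (1.94 and 1.19 CPM) or the proteoglycan gene Gpc2 (3.94 and 4.02 CPM), whose exons share 55.6% of their bases with Gm43720.

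Among the VEGF receptors, the coreceptor gene Nrp1 was by far more abundant than the kinases. Its level was 156 ± 12.1 CPM in DDR2-plus against 128 ± 9.44 CPM, 1.22-fold higher (SD, n = 5 each; edgeR adjusted p = 0.00907). Nrp2, at 147 and 175 CPM, did not pass (edgeR adjusted p = 0.0598), and it was called in 4 of 19 alternative settings. Kdr was at 14.0, 16.1, 8.43, 17.9 and 6.19 CPM in DDR2-plus libraries 1 to 5 and at 1.17, 2.03, 6.23, 0.527 and 2.22 CPM in PSC, which put DDR2-plus 5.15-fold above (edgeR adjusted p = 0.00421). The groups overlapped by a hair, PSC 3 being just above DDR2-plus 5. Flt1 was at or under 2.43 CPM in every library and did not pass, and Flt4 was at or under 0.937 CPM. Flt4 had 129 counts over the DDR2-plus libraries and 6 over PSC, without overlap, and was too low for the main test. It was called higher in DDR2-plus in each of the 8 alternative settings that kept it (edgeR adjusted p from 0.00979 to 0.0249). A filter on low counts could keep Flt4 only through its DDR2-plus counts, so these calls are no independent support for the difference.

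Kdr is a gene of endothelial cells, and the sum of 12 endothelial markers was 62.3, 56.2, 26.5, 36.2 and 23.2 CPM in DDR2-plus 1 to 5 and 28.5 to 39.6 CPM in PSC. Libraries 3 and 5 of DDR2-plus were the lowest of their group for both the sum and Kdr. Of the 12 markers 9 were tested, 2 were higher (Pecam1 and Vwf) and 2 lower (Cdh5 and Ecscr), and 0 were at 0 counts over all libraries. The part of endothelial cells in the Kdr difference was not tested. Cdh5, the endothelial cadherin, was at 4.49 and 11.8 CPM, 2.62-fold lower in DDR2-plus (edgeR adjusted p = 0.000434), Vwf at 11.3 and 0.443 CPM, higher there (edgeR adjusted p = 0.00428; 0.0862 by limma-voom), and Erg at 10.1 and 10.5 CPM without a call.

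Of the receptors of the angiopoietins, Tek had 7.84 ± 1.13 CPM in DDR2-plus against 12.1 ± 3.93 CPM, a 1.54-fold lower level (SD, n = 5 each; edgeR adjusted p = 0.043). That call held in 6 of 19 alternative settings. It was lost without DDR2-plus 1, 2, 3 or 4 and without PSC 2, 3, 4 or 5, each taken alone, and its edgeR adjusted p was 0.221 with library size alone. Tie1 had 612 counts over the DDR2-plus libraries and 15 over PSC, with 0 counts in DDR2-plus 3 and 5, and was not tested. No call was made for Ptprb, the phosphatase that restrains Tie2 (2.87 and 0.723 CPM).

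**Figure D4:**
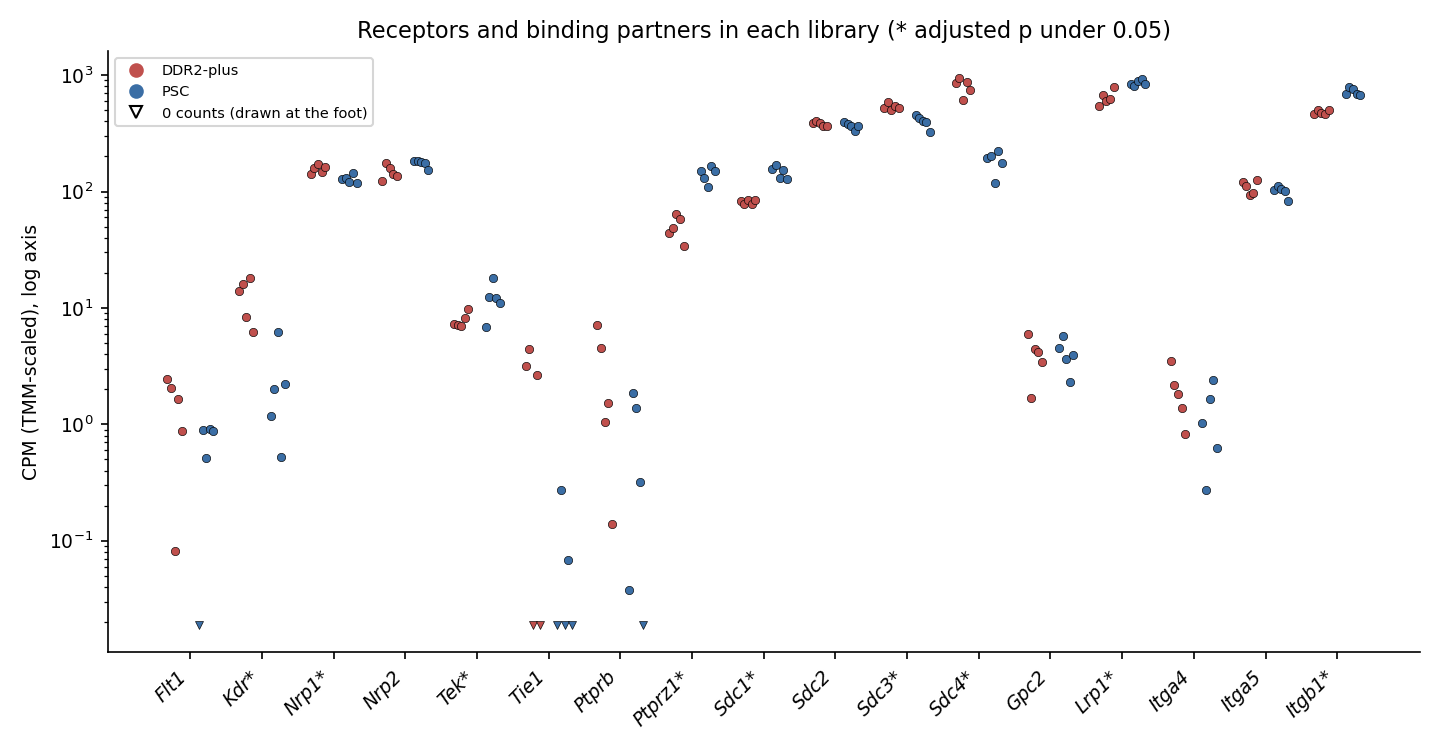
Level of 17 genes for receptors and binding partners in each library, in TMM-scaled CPM on a log axis; red points are DDR2-plus, blue points PSC, and triangles at the foot mark libraries with 0 counts. Stars mark an adjusted p under 0.05: Sdc4 is 4.402-fold higher and Ptprz1 2.86-fold lower in DDR2-plus, without overlap.

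Vegfa and Angptl4 both belong to the known targets of HIF, the transcription factors of low oxygen, and they differed in opposite directions. The part of HIF in these differences was not tested. Of 10 genes for HIF subunits and their regulators, 4 were higher and 2 lower in DDR2-plus. Among all tested genes 20.1% were higher and 19.0% lower. Hif1a was 1.32-fold higher (156 ± 21.3 against 118 ± 16.9 CPM; edgeR adjusted p = 0.0161), Epas1, which encodes HIF-2 alpha, 1.81-fold (24.3 ± 3.36 against 13.4 ± 3.17 CPM; edgeR adjusted p = 0.00142) and Arnt2 2.83-fold (edgeR adjusted p = 0.00196). Hif1an, which encodes an inhibitor of HIF, was 1.57-fold higher as well (edgeR adjusted p = 0.0238) and was called in 16 of 19 alternative settings. Egln1, a prolyl hydroxylase that marks HIF for decay, was 1.74-fold lower (edgeR adjusted p = 0.00858), while there was no call for Arnt (55.1 and 51.3 CPM) or Vhl (47.8 and 41.8 CPM). Egln2 was 1.21-fold lower (edgeR adjusted p = 0.0323), a call that held in 14 of 19 alternative settings. Lower calls in this list numbered 0 with library size alone, and 1 without DDR2-plus 1, DDR2-plus 4, PSC 1 or PSC 2.

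Of 20 HIF target genes other than the 10 factors, 7 were higher, 2 lower and 11 without a call. Among all tested genes 20.1% were higher and 19.0% lower, 39.1% in all. The 2 lower targets were Adm, 2.08-fold (edgeR adjusted p = 0.00454), and P4ha1, 1.17-fold (edgeR adjusted p = 0.028). The 7 higher targets held glucose and glycolysis genes, among them Pfkfb3 (4.17-fold higher), Hk2 (2.70-fold) and Slc2a1 (1.90-fold), as well as Bnip3 (2.43-fold), a gene of mitochondrial clearance (edgeR adjusted p at most 3.9e-05 each). Aldoa (324 and 330.5 CPM) and Ndrg1 (66.8 and 73.9 CPM) did not pass, and Aldoa was called higher with library size alone (log2 fold change 0.24, edgeR adjusted p = 0.0148). Library size alone gave 12 higher and 1 lower in this list, and the lower calls were also 1 without DDR2-plus 1, PSC 1 or PSC 2. Whether HIF activity differed between the populations was not tested.

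Angptl4 acts on lipoprotein lipase and is a PPAR target, so 12 genes of that setting were set beside it. Of the 11 tested, 2 were higher and 4 lower. Lpl, the lipase itself, was 2.79-fold lower in DDR2-plus (48.5 ± 16.6 against 135 ± 45.7 CPM; edgeR adjusted p = 0.000721) and Cpt1a, the gate of fatty acid oxidation, 1.94-fold lower (edgeR adjusted p = 0.0001). Fabp4, a fatty acid carrier of fat and endothelial cells, was 8.39-fold higher at 9.23 ± 5.94 against 1.10 ± 0.611 CPM (SD, n = 5 each; edgeR adjusted p = 0.000912). Pdk4 (19.2 and 15.9 CPM) and Cd36 (6.36 and 1.19 CPM) had no call. The 5 adipocyte markers summed to at most 0.542 CPM in DDR2-plus, against 3.35 CPM in PSC, with Lep at 0 counts. The higher calls in this list numbered 1 without DDR2-plus 2 or DDR2-plus 5 and 4 without PSC 4.

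Of 12 genes for the processing or release of VEGF ligands, 2 were higher and 6 lower. Adamts3, the protease that cuts VEGF-C to its active form, was 2.12-fold higher in DDR2-plus (59.6 ± 3.64 against 28.1 ± 6.15 CPM; edgeR adjusted p = 4.68e-05). Ccbe1, which encodes a cofactor of that cleavage, was 2.99-fold lower (0.887 against 2.66 CPM on average, edgeR adjusted p = 0.012). Pcsk5, a proprotein convertase, was 4.16-fold lower (edgeR adjusted p = 3.89e-06), Plat, the tissue plasminogen activator, 2.40-fold (edgeR adjusted p = 4.73e-07), and the gelatinase gene Mmp2 1.63-fold (edgeR adjusted p = 4.06e-06). Furin (112 and 78.9 CPM) and Ctsd (729.6 and 699 CPM) did not pass in the main test and were called higher with library size alone, where 4 of the list were higher (edgeR adjusted p = 0.0146 and 0.000467).

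Of 10 secreted inhibitors of vessel growth, 7 were lower and 2 higher in DDR2-plus, while their summed level was 7790 to 9810 CPM in DDR2-plus and 8997 to 9951 CPM in PSC. Tnmd, tenomodulin of tendon, was 19.1-fold lower in DDR2-plus, Col18a1, whose product yields endostatin, 8.43-fold, Serpinf1, which encodes the antiangiogenic protein PEDF, 4.81-fold, and the thrombospondin gene Thbs2 4.201-fold (edgeR adjusted p at most 4.36e-07 each). Cnmd (chondromodulin of cartilage) and Thbs1 were the 2 that rose, 5.26-fold and 3.07-fold, named here after their values were seen (edgeR adjusted p at most 6.85e-06 each). Adamts1, at 235 and 230.4 CPM, did not pass. Tnmd also counts as a tendon marker, and tendon markers were lower for 5 of 6 genes in DDR2-plus.

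Cell type markers differed along with the factors. The 8 osteoblast markers summed to 25631 to 46845 CPM in DDR2-plus and 140109 to 161235 CPM in PSC, led by Col1a1, which was 4.74-fold lower, Bglap, 4.78-fold lower, and Ibsp, 1.94-fold lower. The 8 chondrocyte markers summed to 84795 to 118545 CPM and 9880 to 25038 CPM, led by Col2a1, 6.09-fold higher, Col9a2, 5.12-fold, and Col9a1, 5.59-fold. Schwann cell markers, 6 of 6 called higher, summed to 424 to 892 CPM in DDR2-plus and 38.4 to 95.6 CPM in PSC, with S100b 4.26-fold and Mbp 20.7-fold higher; S100b is expressed by chondrocytes as well. Of the 7 neuron markers 6 were higher (41.4 to 126.6 CPM against 6.78 to 14.1 CPM in sum), as were 5 of 6 pineal markers (87.2 to 146.6 against 4.41 to 7.57 CPM) and 5 of 6 astrocyte markers, with 1 lower (488 to 691 against 647 to 865 CPM). Of the pineal markers 2 had 0 counts over the PSC libraries. The filter on low counts could keep these 2 only through DDR2-plus, so a call of either is no independent support for a difference.

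The markers of 9 macrophage genes summed to 4.82 to 8.51 CPM in DDR2-plus and 3.80 to 8.03 CPM in PSC, with 0 of 4 tested called. Of 8 mural cell genes, 1 was higher and 4 lower (670.5 to 874 against 555 to 641 CPM). Of 4 lymphatic genes 1 was higher, and Mmrn1 was at 0 counts (10.05 to 39.5 against 3.61 to 8.29 CPM). Of 6 skeletal muscle genes, 1 was higher (18.6 to 48.0 against 9.25 to 22.2 CPM). The called genes of these short lists, named after their values were seen, were Cspg4 (higher) and Kcnj8, Abcc9, Notch3 and Pdgfrb (lower) for mural cells, Reln for lymphatic and Tnnt3 for muscle cells. How far these cell types account for the differences in the 10 factors was not tested.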

How the data were processed

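The deposited table holds whole-number counts per gene symbol for 10 libraries, not normalized, per the file's values. Per the submitters' processing notes the authors worked on mouse build mm10 and used DESeq. Aligner, counter and annotation were not given in the sources used here. Per the labels' protocols, cDNA was amplified from 1 ng of RNA, and the transposase libraries do not mark strand. Amplified reads are not independent molecules.

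Counts were tested in edgeR 4.0.16 under R 4.3.3 (quasi-likelihood test, TMM factors, filterByExpr, no covariates, Benjamini-Hochberg adjustment over 15416 genes, threshold 0.05). Each standard error is the log2 fold change divided by the root of its F. Ratios within a library were tested by exact permutation. Alternatives used DESeq2 1.42.0, limma 3.58.1 (voom), other factors and filters, a block on the library number, and each library left out in turn. Number 3 was left out of both groups after the data were seen. The gene test was tested on simulated data. Gene lengths and coordinates are from GENCODE M21 on mm10.

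The 10 genes, the other gene lists and the tests were chosen with earlier results of these data known. Besides the 10 factors, Ddr2 and Ctsk, names were taken by rule: other ligands and receptors of at least 1 CPM in either group, and from each further list up to 4 genes past the threshold with the smallest p and 2 abundant ones not past it, and up to 3 abundant genes per marker list. Alk, Flt4, Hif1an, Egln2, Adm, P4ha1, Ccbe1, Pecam1 and Ecscr fall outside it and were named after their values were seen. Some genes that the rule names are not reported here. No 2 libraries agreed within sampling noise.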

Additional observations from a re-analysis of the deposited data

Results flagged for a closer look

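For 81 named genes, the libraries of each group were searched for one that lies far from the other 4, by Dixon's criterion with a critical value of 0.71 for 5 samples. Of 162 group values 8 met it, and chance gives about 1 in 20. Among the 10 factors these were Vegfc in PSC, where PSC 3 was at 13.0 CPM and the next library at 6.94 CPM, and Mdk in DDR2-plus, where DDR2-plus 3 was at 188 CPM and the next at 156 CPM. Without PSC 3 the log2 fold change of Vegfc was -0.47 (edgeR adjusted p = 0.201), and without DDR2-plus 3 that of Mdk was -0.73 (edgeR adjusted p = 2.04e-05).

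DDR2-plus 3 was also high for Ctsk, at 134 CPM with the next library at 104 CPM. PSC 1 was low for Ddr2, at 134 CPM with the next at 153 CPM. PSC 2 was high for Tnmd, at 1627 CPM with the next at 1418 CPM, and for Tie1, at 0.270 CPM with the next at 0.0687 CPM. PSC 3 was low for Ccn2, at 445 CPM with the next at 613 CPM, and PSC 5 was low for Nrp2, at 153 CPM with the next at 176 CPM.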

How the results depend on the processing

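Over 19 alternative settings the 8 calls among the 10 factors kept their direction and their side of the threshold, so that 7 lower and 1 higher were counted at least in each; Vegfc was added as lower by DESeq2, without DDR2-plus 3 and without PSC 5. Library size alone moved the median of all tested genes from 0.04 to 0.31 on the log2 scale and gave 5421 higher and 1538 lower genes, against 3096 and 2926. Among the genes named by rule, those without a call that it turned to the other sign were Vegfb (0.066), Angptl6 (0.10), Nrp2 (0.021), Gpc2 (0.25), Aldoa (0.24), Ndrg1 (0.12) and Erg (0.21). Genes outside that rule turned as well and are not listed. P4ha1, a called gene outside the rule, went from -0.22 (edgeR adjusted p = 0.028) to 0.045 (edgeR adjusted p = 0.616). Lower receptors numbered 3 there, against 5. Angptl6 was also positive by limma-voom (0.15) and with the library number as a block (0.11). Leaving out 1 library also turned the sign of 4 genes named by rule that had no call. Their ranges were -0.45 to 0.064 for Angptl6, -0.23 to 0.15 for Gpc2, -0.044 to 0.071 for Adamts1 and -0.16 to 0.024 for Erg. The cause of these changes was not tested. The leave-one-out range was 2594 to 3191 higher and 2582 to 2887 lower genes.

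Libraries of the same number correlated by 0.0289 to 0.0532 in their deviations from the group means, under the limit of 0.1 set for pairing. Yet each of the 10 correlated best with its own number. Pairing by number is therefore not excluded, and the main tests leave it out. With the library number as a block, 3054 genes were higher and 2688 lower, and the calls of the 10 factors did not change. Among the other ligands and receptors the block called Angpt4 (-1.46, edgeR adjusted p = 0.0375) and Nrp2 (-0.26, edgeR adjusted p = 0.0422) lower and no longer called Tek (edgeR adjusted p = 0.0816). The ratios within a library were tested with the block by sign flips, whose smallest p with 5 pairs is 0.0625: the difference was 0.94 for Vegfa to Vegfb (exact permutation p = 0.0625) and -0.41 for Ptn to Mdk (exact permutation p = 0.125). Leaving out 1 library gave 0.81 to 1.15 for Vegfa to Vegfb, -0.50 to -0.35 for Ptn to Mdk and -0.37 to -0.17 for Angptl4 to Angptl2. Depth limited little here, since the factor with the fewest counts had 2225 over all libraries.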

Other observations

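Other secreted factors that act on vessels differed in both directions. Of 18 such genes 17 were tested, 6 were higher and 5 lower in DDR2-plus, with a median log2 fold change of 0.08. The matricellular genes Ccn1 and Ccn2, whose products bind integrins and heparan sulfate, were at 3488 ± 518 and 1905 ± 276 CPM in DDR2-plus and at 1324 ± 215 and 597 ± 87.0 CPM in PSC (SD, n = 5 each), 2.63-fold and 3.19-fold higher (edgeR adjusted p = 4.64e-06 and 1.07e-06). Each was above the level of every one of the 10 factors in DDR2-plus in CPM. The exons of Ccn2 share 23.2% of their bases with the annotated gene Gm15270. Cxcl12, a chemokine of perivascular stroma, was at 96.0 ± 19.3 against 246 ± 14.8 CPM, 2.56-fold lower, and Slit3, a guidance factor made by osteoblasts, at 38.9 ± 7.94 against 115 ± 10.9 CPM, 2.95-fold lower (edgeR adjusted p of 2.93e-06 or less for both). There was no call for Ang (4.86 and 7.17 CPM) or Apln (2.12 and 2.75 CPM).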
